A study of Mus musculus with 12 samples.

Results

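Extracellular ATP, NAD and adenosine act on T cells through a small set of surface enzymes and receptors, and 10 genes of this kind were examined here: Entpd1, Nt5e, Ada, Dpp4, Adora2a, Adora2b, Cd38, Art2b, P2rx7 and P2rx4. They were taken by gene symbol from a table of 24421 genes, and all 10 were found there. The genes were chosen by their role, but with the fold changes of this same comparison in view, so those fold changes are given as a description and support nothing by themselves. The table compares CD8+ T cells sorted by flow cytometry from the spleens of C57BL/6 mice of the genotypes cTKO and WT, with 2 animals each (1 female and 1 male per genotype). Each sample was a sort of 500000 cells from which poly(A)-selected RNA was sequenced with paired ends. The study describes 12 samples in 6 groups, of which the 4 CD8 samples are behind the table used here and the B and CD4 T cell samples were not analysed. The labels do not spell out cTKO, which in this study stands for a conditional loss of the 3 linker histone H1 genes Hist1h1c, Hist1h1d and Hist1h1e. They name no Cre driver and no age, so which other cells of these mice also lacked H1 is not given here.

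ATP that leaves cells is a danger signal for lymphocytes. The enzyme CD39 (Entpd1) cuts it to AMP and CD73 (Nt5e) cuts AMP to adenosine, which restrains T cells through the receptor A2A (Adora2a) until adenosine deaminase (Ada) turns it to inosine. A second substrate is NAD, which CD38 consumes and which the mouse ADP-ribosyltransferase ARTC2.2 (Art2b) uses to modify and open the ATP-gated channel P2X7 (P2rx7). P2X4 (P2rx4) is a related ATP-gated channel, and CD26 (Dpp4) is a surface peptidase that in humans also binds adenosine deaminase.

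Whole reads in each library were recovered from the table's means, and are given for the larger and then the smaller library of each genotype. They totalled 11892622 and 8019517 in cTKO libraries, against 12952172 and 8747975 in WT libraries. Reads of Hist1h1c were 0 and 0 in cTKO, against 41 and 56 in WT, and those of Hist1h1e were 0 and 0 in cTKO, against 64 and 112 in WT. The header leaves the direction of the fold changes unsaid, and cTKO over WT was taken because these genes are negative, so they are no separate check of the labels. Most Xist reads lay in the larger library of each genotype (4871 and 28 reads in cTKO, against 479 and 2 in WT), so library size and sex of the animal cannot be told apart. The CD8 T cell markers Cd8a and Cd8b1 were among the most abundant transcripts, with mean normalized counts of 20303 and 31813 over the 4 libraries in the authors' deposited table, and 0 of the 6 measured CD8 T cell markers (with Cd3d, Cd3e, Cd3g and Cd2) passed the test. Fewer cells with a transcript and less of that transcript per cell cannot be told apart in bulk RNA of sorted cells.

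Of the 10 genes, 3 were higher in cTKO CD8 T cells (Entpd1, Cd38 and P2rx7) and 1 was lower (P2rx4) at an adjusted p under 0.05 in the authors' deposited table. A further 5 did not pass, and Adora2b, with almost no reads, carried no adjusted p. Over all 12972 genes with an adjusted p, 13.4% passed, 9.77% as higher and 3.61% as lower, and nothing is read from the members' share because they were chosen with this contrast known. The genotypes did not overlap for 7 of the 9 genes with an adjusted p, with both cTKO libraries above those of WT for 4 and below them for 3, against 59.5% of all tested genes with recovered reads (32.0% above and 27.5% below). Limma on the recovered reads called the same 4 genes, where 11.6% of all genes passed.

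**Figure D1:**
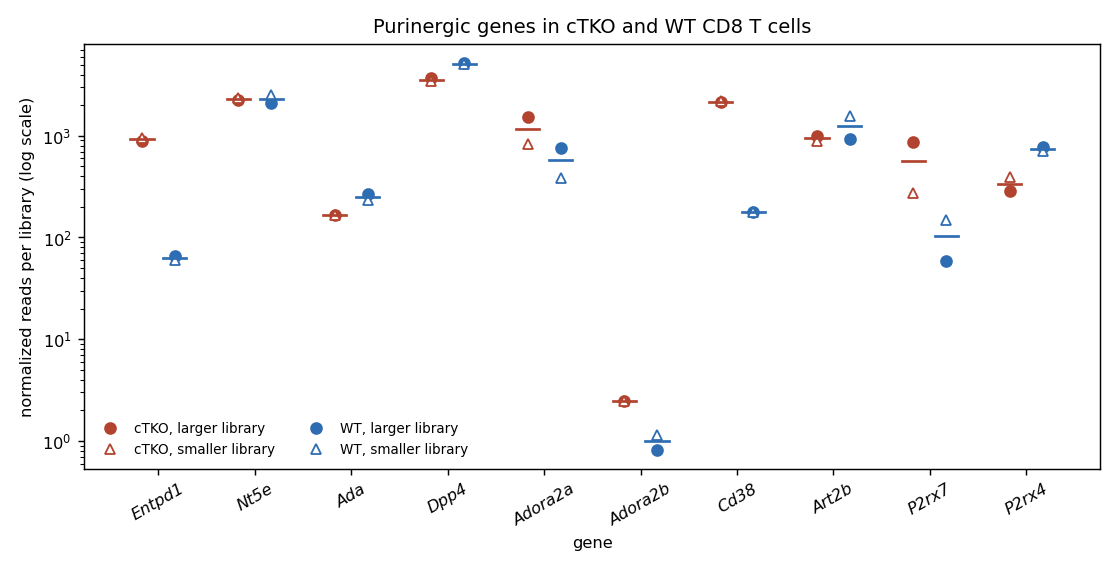
Normalized reads (recovered reads divided by the size factor, log axis) of the 10 genes in each cTKO library (red) and each WT library (blue), with filled circles for the larger and open triangles for the smaller library and a bar at the mean. Entpd1 and Cd38 lie more than 10-fold apart with close replicates, while the replicates of P2rx7 and Adora2a spread widely within each genotype.

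The promoters of the 4 genes that passed are shown first, because they differ in their content of CpG, the dinucleotide at which mammalian DNA is methylated and which is sparse outside CpG islands. Each line gives 250 bases before and 50 after a start of the gene, from RefSeq on GRCm38.p6 and read 5′ to 3′ on the plus strand, where all 4 genes lie, with each CpG in capitals.
Entpd1, chr19:40612116-40612415: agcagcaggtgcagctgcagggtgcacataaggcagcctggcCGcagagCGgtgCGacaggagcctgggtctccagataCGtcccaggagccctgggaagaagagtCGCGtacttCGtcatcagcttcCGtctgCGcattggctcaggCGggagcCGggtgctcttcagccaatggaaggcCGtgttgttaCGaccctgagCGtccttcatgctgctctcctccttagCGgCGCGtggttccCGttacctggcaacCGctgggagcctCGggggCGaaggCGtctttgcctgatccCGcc
Cd38, chr5:43868559-43868858: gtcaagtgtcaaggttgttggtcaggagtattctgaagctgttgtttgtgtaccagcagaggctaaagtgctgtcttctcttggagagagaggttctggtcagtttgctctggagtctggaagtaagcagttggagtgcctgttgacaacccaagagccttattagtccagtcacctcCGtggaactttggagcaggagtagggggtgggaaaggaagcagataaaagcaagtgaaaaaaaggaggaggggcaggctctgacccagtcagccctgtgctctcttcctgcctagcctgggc
P2rx7, chr5:122643677-122643976: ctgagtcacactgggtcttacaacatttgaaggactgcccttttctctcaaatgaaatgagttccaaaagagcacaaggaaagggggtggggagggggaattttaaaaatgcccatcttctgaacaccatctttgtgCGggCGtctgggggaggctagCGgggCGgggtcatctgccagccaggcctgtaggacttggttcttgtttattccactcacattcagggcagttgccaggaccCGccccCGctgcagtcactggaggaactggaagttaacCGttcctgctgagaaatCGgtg
P2rx4, chr5:122707294-122707593: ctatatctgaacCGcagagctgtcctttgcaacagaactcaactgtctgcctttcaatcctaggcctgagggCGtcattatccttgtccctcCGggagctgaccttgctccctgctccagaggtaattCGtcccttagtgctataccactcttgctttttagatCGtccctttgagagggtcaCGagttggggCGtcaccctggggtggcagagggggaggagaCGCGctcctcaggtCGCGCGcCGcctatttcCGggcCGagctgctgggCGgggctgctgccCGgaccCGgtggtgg
The Entpd1 window held 23 CpG, the Cd38 window 1, the P2rx7 window 8 and the P2rx4 window 18, against a median of 7 over the 32851 promoter windows of the table. Only 5.43% of all windows held fewer CpG than that of Cd38, whereas 78.5% held fewer than that of Entpd1. A second listed start of Entpd1 had 10 CpG and a second one of P2rx7 had 4.

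Other members showed the same range of promoter types, with 9 of the 10 genes matched in the RefSeq table. Among genes that did not pass or had no adjusted p, the windows of Nt5e, Ada and Adora2b held 23, 20 and 27 CpG, and those of Art2b and Dpp4 held 3 and 4. Both strands were searched for TGACGT (CREB), TGANTCA (AP-1), TTCNNNGAA (STAT), TGTGGT (RUNX), AGGTGT (T-box), GGGCGG (GC box) and the longer motifs of interferon response factors and NF-kB. This found GGGCGG in 5 of 11 windows of the members, against 35.7% of all windows. The P2rx7 window holds 2 GC boxes and 1 match to TGANTCA, which also occurs in the Art2b window and in 7.81% of all windows. The windows of Cd38 and the first start of Entpd1 held none of these motifs. The second listed start of Entpd1 held 1 match to TGACGT, found in 7.51% of all windows, and 1 to TGTGGT, found in 16.8%. A match describes letters in the window and is not a bound site.

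The enzymes that make adenosine did not move together. Entpd1 (Entrez 12495, chromosome 19, 40612366 to 40741602, GRCm38, plus strand), which codes for CD39, had 1081 and 764 reads in cTKO libraries, against 80 and 52 in WT libraries. Both cTKO libraries were high and both WT libraries low, and after scaling the replicates of a genotype were within 1.10-fold of each other. It was 14.6-fold higher in the authors' deposited table (3.87 on the log2 scale, SE 0.35, DESeq2 adjusted p 6.31e-25). Nt5e (Entrez 23959, chromosome 9, 88327197 to 88372092, plus strand), which codes for CD73, had 2705 and 1880 reads in cTKO libraries, against 2541 and 2196 in WT libraries. Scaled for depth these were 2240 and 2335 in cTKO and 2092 and 2536 in WT, so the cTKO libraries lay between the WT ones. The authors' deposited table gives Nt5e a log2 fold change of -0.02 (SE 0.30, 95% interval -0.60 to 0.57, adjusted p 0.980).

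Ada and Dpp4 had fewer normalized reads in both cTKO libraries without passing the test. Ada (Entrez 11486, chromosome 2, 163726584 to 163750239, minus strand), which removes adenosine, had 200 and 133 reads in cTKO libraries, against 327 and 201 in WT libraries. The normalized values were 166 and 165 in cTKO and 269 and 232 in WT, without overlap, and the authors' deposited table gives a log2 fold change of -0.60 (SE 0.39, 95% interval -1.37 to 0.17, adjusted p 0.335). Dpp4 (Entrez 13482, chromosome 2, 62330073 to 62412231, minus strand) had 4421 and 2751 reads in cTKO libraries, against 6261 and 4363 in WT libraries. Normalized, these were 3662 and 3418 in cTKO and 5156 and 5038 in WT, again without overlap, with a log2 fold change of -0.53, per the authors' deposited table (SE 0.29, 95% interval -1.09 to 0.03, adjusted p 0.226). For both genes the interval reaches from more than 2-fold lower to slightly higher in cTKO.

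The adenosine receptors differed widely in level. Adora2a (Entrez 11540, chromosome 10, 75316877 to 75334784, plus strand), which raises cAMP in T cells when adenosine binds, had 1848 and 665 reads in cTKO libraries, against 928 and 330 in WT libraries. The smaller library of each genotype was the lower one, with normalized values of 1531 and 826 in cTKO and 764 and 381 in WT, and the lowest cTKO value lay just above the highest WT value. The authors' deposited table gives it a log2 fold change of 1.04 (SE 0.42, 95% interval 0.22 to 1.86, adjusted p 0.0779). It passed when those fold changes were centred on well-expressed genes (adjusted p 0.0465) and, with limma, when library size was a block (0.0274) or the smaller cTKO library was left out (0.0114). Limma with all 4 libraries gave 0.109, and without one of the other libraries 0.100 to 0.652. Adora2b (Entrez 11541, chromosome 11, 62248984 to 62266453, plus strand), the A2B receptor with lower affinity for adenosine, had 3 and 2 reads in cTKO libraries, against 1 and 1 in WT libraries. The ratio of 2.58 has a counting interval of 0.423 to 27.1 (95%, exact), so no difference was detectable at this depth.

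The 2 NAD-consuming enzymes also took separate courses. Cd38 (Entrez 12494, chromosome 5, 43868553 to 43912375, plus strand), whose product cleaves NAD to ADP-ribose and cyclic ADP-ribose, had 2591 and 1761 reads in cTKO libraries, against 217 and 154 in WT libraries. After scaling the replicates were nearly equal within each genotype, at 2146 and 2188 in cTKO and 179 and 178 in WT. The log2 fold change of 3.60 (SE 0.31) in the authors' deposited table had an adjusted p of 2.99e-28. Art2b (Entrez 11872, chromosome 7, 101576970 to 101585600, minus strand) had 1196 and 719 reads in cTKO libraries, against 1139 and 1365 in WT libraries. The smaller WT library was the high one, at 1576 normalized reads against 938 in the larger, and the cTKO values of 991 and 893 overlapped that range. The authors' deposited table gives Art2b a log2 fold change of -0.42 (SE 0.35, 95% interval -1.10 to 0.27, adjusted p 0.474).

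The 2 ATP-gated channels, whose genes start 63.6 kb apart on chromosome 5, moved in opposite directions. P2rx7 (Entrez 18439, 122643911 to 122691432, plus strand), whose channel opens to high ATP and can lead to T cell death, had 1037 and 220 reads in cTKO libraries, against 71 and 129 in WT libraries. The larger cTKO library was by far the highest, and in WT the order of the libraries was turned round. It was 5.49-fold higher in the authors' deposited table (2.46 on the log2 scale, SE 0.54, adjusted p 0.000167). P2rx4 (Entrez 18438, 122707544 to 122729738, plus strand), which opens at lower ATP than P2X7, had 343 and 314 reads in cTKO libraries, against 935 and 611 in WT libraries. Both cTKO libraries were low, and the gene was 2.19-fold lower in the authors' deposited table (-1.13 on the log2 scale, SE 0.35, adjusted p 0.0121). Neither call held in every fit of limma that left out 1 library: P2rx7 had an adjusted p of 0.103 without the larger WT and 0.0688 without the larger cTKO library, and P2rx4 had 0.398 without the larger WT, 0.219 without the smaller WT and 0.0782 without the larger cTKO library.

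P2rx7 had the most unequal replicates of the 9 genes with an adjusted p. Its normalized reads in the larger cTKO library were 3.14 times those in the smaller one, and in WT 0.392 times. Among 8710 genes whose mean reached 100, the larger library was over 2 times the smaller in 8.46% in cTKO and 1.46% in WT. The smaller library was over 2 times the larger in 1.96% in cTKO and 1.16% in WT. Genes whose only read lay in the larger cTKO library numbered 1165. The smaller cTKO library had 156, the larger WT 102 and the smaller WT 97. Why the larger cTKO library stood apart was not tested. Log2 fold changes of P2rx7 ran from 1.61 to 3.26 over the 4 fits that left out 1 library, whereas those of Cd38 ran from 3.59 to 3.61 and those of Entpd1 from 3.80 to 3.93. Cd38 and Entpd1 passed in all 4 of these fits.

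**Figure D2:**
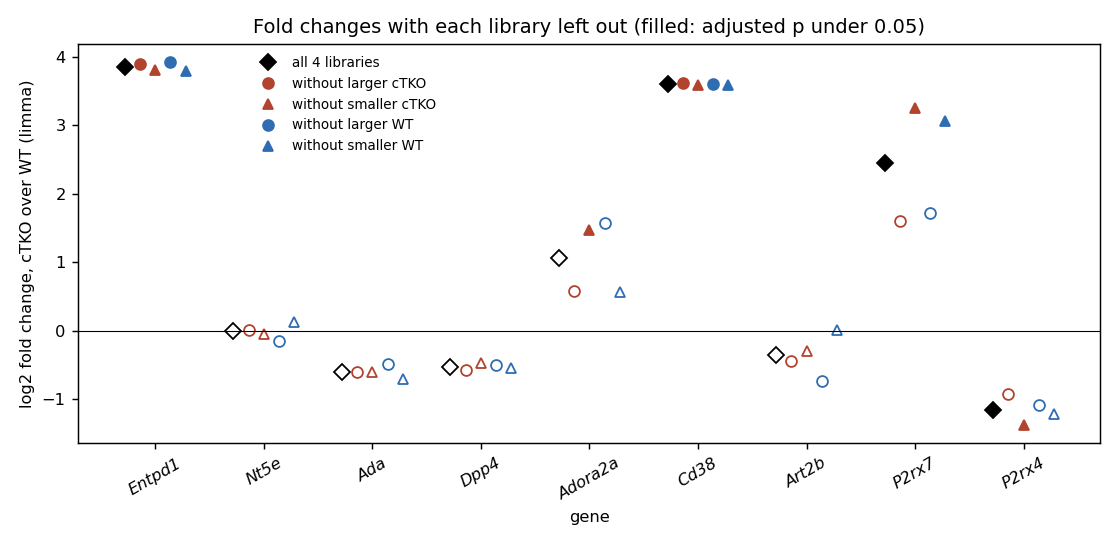
Log2 fold change (cTKO over WT, limma on recovered reads) of 9 genes with all 4 libraries (black) and with each library left out in turn, filled where the adjusted p was under 0.05. Entpd1 and Cd38 stay filled and nearly level, P2rx7 spreads from 1.61 to 3.26, and P2rx4 is filled with all 4 libraries and without the smaller cTKO library.

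Levels per kb of exon set the members in a different order in each genotype. In cTKO, Dpp4 and Cd38 stood highest, at 560 and 557 normalized reads per kb, and their libraries overlapped. Adora2a at 385 and Art2b at 333 overlapped as well, and Nt5e at 266 lay clear of Art2b but not of the smaller library of Adora2a, at 269.8. Entpd1 followed at 165, clear of these. P2rx7, at 144 in the larger and 45.8 in the smaller library, overlapped both Ada at 82.6 and P2rx4 at 48.0, and Adora2b came last at 1.35. In WT, Dpp4 stood first at 807 normalized reads per kb and Art2b followed at 444, without overlap. Nt5e at 269 overlapped Adora2a at 187, which overlapped Ada at 125, and P2rx4 stood below them at 105. Cd38 was 7th in WT at 45.8 per kb, and P2rx7 at 17.4 overlapped Entpd1 at 11.3. Exon bases are those of all annotated transcripts of a gene joined, so levels of genes with long alternative ends are understated.

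Genes beside the members were looked at to see whether whole neighbourhoods moved. The 2 nearest tested genes on each side of every member gave 38 genes, of which 6 were higher, 2 lower and 30 not past the test, counting P2rx7 and P2rx4, which neighbour each other and were chosen with their values known. Over all tested genes 9.77% were higher and 3.61% lower. Bst1 starts 49.7 kb from Cd38 and codes for CD157, an ADP-ribosyl cyclase and a relative of CD38. It had 434 and 356 reads in cTKO libraries, against 1 and 2 in WT libraries, a ratio of 272 with a counting interval of 92.8 to 1323, and the authors' deposited table gives 5.06e-16 as its adjusted p. Bst1 overlaps Fbxl5 on the opposite strand, and the strand handling of the counting is not given in the sources used here, while Fbxl5 itself had 3245 and 2589 reads in cTKO libraries, against 3629 and 1995 in WT libraries. On the other side of Cd38, Prom1 (the membrane protein CD133) had 40 and 47 reads in cTKO libraries, against 1 and 0 in WT libraries, with an adjusted p of 0.00125 in the authors' deposited table. The next gene, Tapt1, had a log2 fold change of -0.06 and did not pass in the authors' deposited table.

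Around Art2b its relative Art2a-ps, which a premature stop inactivates in C57BL/6, starts 24.7 kb away. Art2a-ps had 485 and 58 reads in cTKO libraries, against 41 and 39 in WT libraries, and most of its cTKO reads came from the larger library. It was higher in the authors' deposited table (2.60 on the log2 scale, SE 0.65, adjusted p 0.00137), but limma gave an adjusted p of 0.0754, and of 0.111 without the larger WT and 0.329 without the larger cTKO library. Counts of the 2 genes may be uncertain, because reads shared by related genes can be split or dropped in counting. How much sequence Art2b and Art2a-ps share was not measured. The other neighbours that passed were Inppl1 near Art2b and Specc1 near Adora2b, both higher, and Anapc5 near P2rx4, which was lower. Their log2 fold changes were 3.18, 2.54 and -0.80, per the authors' deposited table, and limma with all 4 libraries called Inppl1 (adjusted p 0.0407) and Specc1 (0.0159) but not Anapc5 (0.0697). Anapc5 also did not pass with no filter on the mean (0.0651) or when centred (0.0933). Inppl1 lost its call in limma without the larger WT (0.122) or the larger cTKO library (0.154), and Specc1 without the larger WT (0.115) or the smaller WT library (0.0521). None of the 4 tested neighbours of Entpd1 passed. Tctn3, whose start lies 0.133 kb away on the other strand, had 217 and 165 reads in cTKO libraries, against 427 and 218 in WT libraries, and had an adjusted p of 0.287 (from the authors' deposited table).

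**Figure D3:**
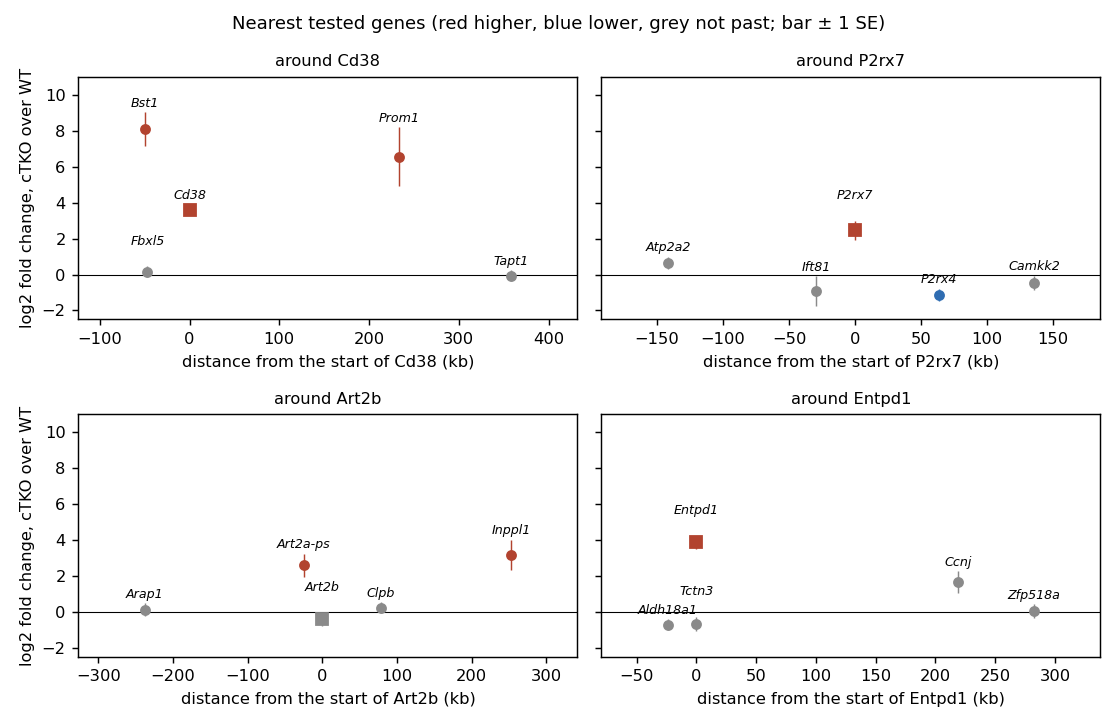
Log2 fold change (cTKO over WT, ± 1 SE, from the authors' deposited table) of the 2 nearest tested genes on each side of Cd38, P2rx7, Art2b and Entpd1 by distance between starts in kb; squares are the members, red is higher, blue lower and grey not past an adjusted p of 0.05. Bst1 and Prom1 rise beside Cd38, P2rx4 falls beside P2rx7, and no neighbour of Entpd1 passes.

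The rest of the pathway was counted over 7 lists of 105 genes in all, chosen with earlier results of these data known. The table held 104 of them, and 79 carried an adjusted p, of which 12 were higher and 6 lower in the authors' deposited table, where 13.4% of all tested genes passed (9.77% higher and 3.61% lower). Their median log2 fold change was 0.05, against 0.04 over all tested genes. The list for extracellular nucleotide hydrolysis went by gene family, so not every product on it need act outside the cell. Of its 9 tested genes 2 were higher and 0 lower. These were Enpp2, which codes for autotaxin, with a log2 fold change of 2.14, and Acpp, a phosphatase that can also cut AMP, with 1.71 in the authors' deposited table. Both lost the call in limma without the larger WT library, with adjusted p of 0.157 for Enpp2 and 0.290 for Acpp.

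Among ADP-ribosyltransferases and NAD synthesis genes 3 of 16 tested were higher and 2 lower. Beside Bst1 and Art2a-ps, Nmnat2, which makes NAD from its mononucleotide, had 523 and 253 reads in cTKO libraries, against 37 and 52 in WT libraries. Art4, which carries the Dombrock blood group in humans, was lower, with 180 and 125 reads in cTKO libraries, against 1106 and 513 in WT libraries. On the log2 scale the authors' deposited table gives 3.06 for Nmnat2 and -2.31 for Art4, and both genes, like Bst1, passed in all 4 fits without 1 library. Nmnat3, the second gene that was lower, had 150 and 153 reads in cTKO libraries, against 384 and 308 in WT libraries (adjusted p 0.0474, per the authors' deposited table), and limma with all 4 libraries gave 0.0624.

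Of 16 other genes with P2X, P2Y or adenosine receptor names only 7 had enough reads for an adjusted p, and 3 of these were higher. P2ry12 had 37 and 18 reads in cTKO libraries, against 1 and 2 in WT libraries, a ratio of 19.0 with a counting interval of 6.16 to 94.7. P2ry1 had 52 and 16 reads in cTKO libraries, against 3 and 1 in WT libraries, and P2ry13 had 61 and 7 in cTKO libraries, against 4 and 0 in WT libraries. All 3 are receptors for ADP, and none passed in every limma fit without 1 library. P2ry12 had an adjusted p of 0.136 without the larger WT library, P2ry1 had 0.0540 without either WT library, and P2ry13 had 0.0610 with all 4 libraries, 0.166 without the smaller WT and 0.214 without the larger cTKO library. P2ry10, the most abundant of the list, was counted by its name alone, whatever its ligand. It had 1114 and 488 reads in cTKO libraries, against 715 and 447 in WT libraries, and did not pass.

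Nucleoside transport and purine salvage had 0 of 17 tested genes higher and 2 lower. Over all tested genes 9.77% were higher and 3.61% lower, and nothing is read from the share of so short a list. Ampd1, which deaminates AMP, had 18 and 71 reads in cTKO libraries, against 787 and 483 in WT libraries (log2 fold change -3.55, per the authors' deposited table, adjusted p 0.0139). It passed in all 4 limma fits without 1 library, but its log2 fold change there was -2.77 without the larger and -5.30 without the smaller cTKO library. Adk, which turns adenosine back to AMP, had a log2 fold change of -1.07 and an adjusted p of 0.0408 by the authors' deposited table, and did not pass when fold changes were centred on well-expressed genes (0.0705). Among 8 tested genes of ATP release and P2X7 partners, Casp1, the inflammasome protease, was higher and Slc17a9 lower. Casp1 had 1435 and 1155 reads in cTKO libraries, against 380 and 164 in WT libraries (2.38 on the log2 scale and adjusted p 2.66e-09, per the authors' deposited table), and passed in all 4 fits without 1 library. Slc17a9, which loads ATP into vesicles, had a log2 fold change of -0.86, per the authors' deposited table (adjusted p 0.0451) and did not pass when centred (0.0870). Limma with all 4 libraries called neither Adk (adjusted p 0.0585) nor Slc17a9 (0.0713), and neither passed with no filter on the mean (0.0571 for Adk and 0.0631 for Slc17a9). Without 1 library the limma log2 fold change ran from -1.61 to -0.65 for Adk and from -1.07 to -0.66 for Slc17a9.

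Genes of cAMP signalling below the adenosine receptors gave 2 of 17 higher and 1 lower. Adcy9, an adenylyl cyclase, and Pde4a, a cAMP phosphodiesterase, had log2 fold changes of 3.16 and 2.58, per the authors' deposited table. Adcy9 had 67 and 32 reads in cTKO libraries, against 1 and 9 in WT libraries, and Pde4a had 78 and 38 in cTKO libraries, against 14 and 6 in WT libraries. The more abundant Pde4b had 2092 and 1662 reads in cTKO libraries, against 4267 and 2891 in WT libraries, with 0.0341 as the adjusted p of the authors' deposited table and 0.0704 when centred. Of 5 tested dipeptidyl peptidase relatives of Dpp4, Dpp7 was higher (log2 fold change 0.98, adjusted p 0.0438, per the authors' deposited table) and 4 did not pass. With all 4 libraries limma called Adcy9 (adjusted p 0.0161) and Pde4a (0.0198) but neither Pde4b (0.0631) nor Dpp7 (0.0785). Without 1 library the limma log2 fold change of Pde4b ran from -0.98 to -0.73 and that of Dpp7 from 0.779 to 1.147. Adcy9 ran from 2.13 to 5.28 and lost its call without the larger WT library (0.258). Pde4a ran from 2.24 to 2.91 and lost its call without the larger WT (0.0868), the smaller WT (0.124) or the larger cTKO library (0.0525).

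**Figure D4:**
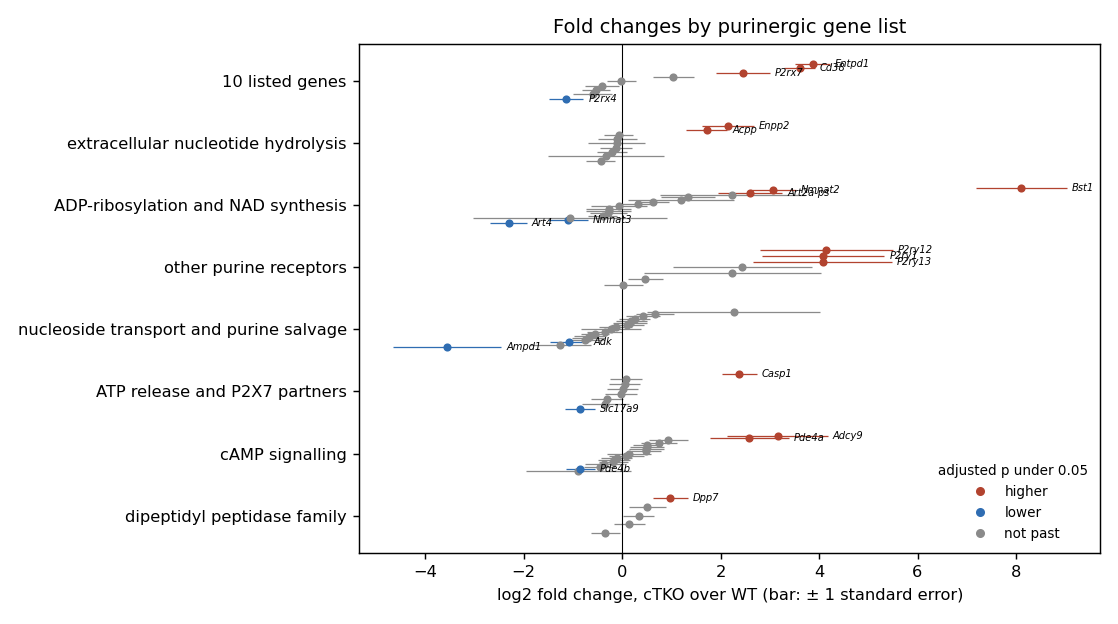
Log2 fold change (cTKO over WT, bars ± 1 SE, from the authors' deposited table) of every tested gene of the 10 listed genes and of 7 further lists, red where higher, blue where lower and grey where not past an adjusted p of 0.05. Bst1 at 8.10 lies farthest from 0. The nucleoside transport and purine salvage list has 0 of 17 tested genes in red, where 9.77% of all tested genes were higher.

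Markers of T cell state and of other cells moved with the genotype as well, and their part in the values of the 10 genes was not tested. Of 13 effector and memory CD8 T cell markers 11 were higher and 1 (Itgae) lower, and of 8 naive T cell markers 0 were higher and 3 lower. The 7 effector and memory markers with recovered reads summed to 17960 and 17427 normalized reads in cTKO libraries, against 6725 and 7458 in WT libraries. The 2 naive markers with recovered reads, Dapl1 and Ccr9, summed to 403 and 1164 in cTKO, against 4213 and 5389 in WT. Natural killer cell markers were higher for 6 of 8 (Klrb1c, Tyrobp, Eomes, Klra8, Klre1 and Gzma) and lower for 1 (Fcer1g), and Ncr1 did not pass. Activated CD8 T cells also express many of these genes, and the source of the reads was not tested. Klra8 had 206 and 75 reads in cTKO libraries, against 3 and 3 in WT libraries, and Tyrobp had 440 and 201, against 28 and 23. Fcer1g had 10 and 9 reads in cTKO libraries, against 94 and 41 in WT libraries, and Ncr1 had 22 and 1, against 2 and 4. The 8 markers summed to 10842 and 9230 normalized reads in cTKO, against 1733 and 1895 in WT.

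Markers of other blood cells were also measured. Of 11 myeloid and dendritic markers 2 (Itgam and Itgax) were higher among 8 tested, and the list summed to 2640 and 917 normalized reads in cTKO libraries, against 160 and 139 in WT libraries. Itgax had 2429 and 509 reads in cTKO libraries, against 56 and 44 in WT libraries, and Itgam had 434 and 138, against 34 and 30. Activated T cells also carry these 2 genes, and the source of the reads was not tested. Without these 2 genes the other 9 markers summed to 269 and 113 in cTKO, against 85.6 and 53.1 in WT. Csf1r had 25 and 6 reads in cTKO libraries, against 2 and 3 in WT libraries, and Adgre1 had 4 and 0 in cTKO, against 2 and 0 in WT. S100a8 had 22 and 0 reads in cTKO and S100a9 had 19 and 0, against 0 and 0 for each in WT. Cd68 had 209 and 76 reads in cTKO, against 76 and 23 in WT, and did not pass. Lyz2, which did not pass either, had 43 and 6 reads in cTKO, against 20 and 11 in WT. Siglech had 0 and 1 reads in cTKO, against 0 and 0 in WT. Cd14 and Flt3 leaned the other way, with 1 and 0 and with 2 and 2 reads in cTKO, against 2 and 1 and 2 and 8 in WT. The 12 B cell markers summed to 1280 and 442 normalized reads in cTKO libraries, against 2347 and 2230 in WT libraries, with 4 of 9 tested lower and 0 higher. Cd22, which did not pass, gave 748 and 47.2 of these in cTKO, against 171 and 151 in WT, and Cd79b, which was lower, gave 146 and 180 in cTKO, against 1327 and 880 in WT. H2-Ab1 was also lower, with 72 and 25 reads in cTKO, against 333 and 298 in WT. So were H2-Aa, with 41 and 12 against 133 and 173, and Cd74, with 252 and 92 against 502 and 479. The B cell factor gene Pax5 had 0 and 1 reads in cTKO, against 0 and 0 in WT. Of 6 tested CD4 and regulatory T cell markers 1 (Zbtb7b) was higher, the list summing to 584 and 294 normalized reads in cTKO libraries, against 345 and 311 in WT libraries, and Foxp3 had 9 and 9 reads in cTKO, against 13 and 20 in WT. Erythroid and platelet markers, of which Ppbp was at 0 in all 4 libraries, summed to 110 and 69.6 in cTKO, against 181 and 229 in WT.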

How the data were processed

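The labels describe sorted splenic lymphocytes, and the file analysed holds the authors' test of 2 cTKO against 2 WT CD8 samples, without columns per sample. STAR and DESeq2 were used and the builds are mm10 and GRCm38.p6, per the submitters' processing notes; their versions, the annotation, the counting tool and its strand setting were not stated there. The mean normalized count of a gene, per the file headers, is a signal the authors obtained by scaling reads with size factors. Fold changes and SE are on the log2 scale, as the authors deposited them, and the deposited test score equals their ratio in every row (largest difference 2.17e-08). P-values and adjusted p-values are the deposited ones; genes with a mean below 3.45 carried no adjusted p. The direction of the fold change is not in the header and was read as cTKO over WT, and an inverted reading would turn every direction.

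The 10 genes, the further lists and the tests were chosen with earlier results of these data known. All 10 genes are named; of the further lists, up to 4 genes with the smallest p among those past an adjusted p of 0.05, and of neighbours the 2 nearest tested genes per side. P2ry10, Nmnat3, the neighbours without a call and the markers shown were named after their values were seen.

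Reads per library were recovered as whole numbers. The 4 lowest means are what 1 read is worth in each library, giving size factors of 1.21 and 0.805 for cTKO and 1.21 and 0.866 for WT. Below a mean of 20 the mean alone fixed the 4 numbers; up to 10000 a negative binomial fit also had to match the deposited value on the log2 scale to 3e-05 (to 3e-07 at means over 1000), with the runner-up at least 5 times worse. These limits and a ridge term of 1e-06 were set after fit errors on real genes had been seen. An exception was made for large fold changes with few or no reads in 1 genotype, where this fit gave no accepted answer. There the mean alone decided, without a match to the fold change, as for Hist1h1c and Hist1h1e. Of 18153 genes with a read, 17572 (96.8%) were solved, and 199 with a mean of 10000 and over were not tried. The script was tested on simulated data, for recovery only on genes with reads in both genotypes. Recovery gives the genotype and size of a library; Xist reads place the labelled female in the larger library of each genotype. The replicates are different animals, and p-values rest on 2 animals per genotype, 1 female and 1 male. DESeq2 and limma estimate the spread of a gene partly from other genes, so a p-value does not measure that gene's own spread alone. Intervals from reads cover counting error only.

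Alternatives were limma 3.58.1 (voom weights, R 4.3.3) on recovered reads, the same with library size class as a block, each library left out, adjustment over all genes with a p-value, and fold changes centred on the median of genes whose mean reached 100 (a shift of -0.10). Positions are from GENCODE M21 (GRCm38), matched by Ensembl identifier for all 10 genes, and promoters from RefSeq. No promoter of Adora2a was matched.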

Additional observations from a re-analysis of the deposited data

How the results depend on the processing

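With every alternative Entpd1 and Cd38 stayed higher, the log2 fold change running from 3.80 to 3.97 for Entpd1 and from 3.59 to 3.70 for Cd38. Of the 10 genes 4 passed in the authors' test, with no filter on the mean and by limma, 5 (with Adora2a) when centred and with the block, and 2 to 5 over the fits without 1 library. Of the 105 further genes 18 passed in the authors' test, 14 with no filter, 14 when centred (85.7% of them higher, against 66.7% in the authors' test), 11 by limma, 16 with the block and 6 to 27 without 1 library. Of all genes 1736 passed, against 1554 with no filter, 1826 when centred (81.3% higher, against 73.0%), 1435 by limma (1236 of them shared with the authors' test), 2253 with the block and 648 to 4458 without 1 library; the lowest count came without the larger WT library and the highest without the smaller cTKO library. The cause of these shifts was not tested. Nt5e changed sign when centred (log2 fold change 0.085) and ran from -0.15 to 0.13 without 1 library, and Art2b from -0.74 to 0.0062, neither ever passing. Of 21 other genes named by the rule, which leaves out Nmnat3, 6 passed in all 4 fits without 1 library, 14 were lost without the larger WT library, 4 when centred and 7 by limma. The fits of the further lists without 1 library or with the block, and for single genes limma, the block and the missing filter, were added after the data were seen. Where a fit left 1 library in a genotype, that library was assumed to vary like the others. No paired analysis was possible because the animal numbers of the cTKO and WT CD8 samples differ; the block is by library size, which by Xist reads is also a block by sex. Depth limits Adora2b, P2ry1, P2ry12 and P2ry13, at few reads in WT.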
